A study of Mus musculus with 11 samples.

Results

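Basal cells sorted from mouse mammary outgrowths that carried a hairpin against Ror2 (shROR2) were compared with basal cells from outgrowths that carried a control hairpin (shLUC). The members were the 6 arrays labelled as basal, 3 shROR2 and 3 shLUC, of 11 arrays in all, chosen by their titles alone. The other arrays, 3 luminal shLUC and 2 luminal shROR2, served only to estimate the spread of each gene and for a side by side reading at the end. In every group, primary mammary epithelial cells of Mus musculus were infected overnight with a lentivirus, mixed with Matrigel for injection, and recovered from the outgrowths by a sort on CD24 and CD29. All groups therefore share infection, injection and sorting, and the hairpin is what differs between the groups compared. RNA was isolated with a kit for small samples, amplified from biological triplicates, and read on one-colour Agilent arrays after Cy3 labelling. Strain, age, the hairpin's sequence and which outgrowths gave both layers are not given in the sources used here.

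The mammary duct has an inner luminal layer and an outer basal layer, whose cells contract to eject milk, attach to the basement membrane and include the cells that regenerate a gland after transplantation. Ror2 is a cell surface receptor for Wnt5a and related ligands. It acts mostly outside the β-catenin pathway, through the actin cytoskeleton and planar polarity proteins. A hairpin lowers a transcript through RNA interference, so the first question was whether Ror2 fell, and the second which other transcripts differed.

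Signals are given as scaled log2 signals, the log2 of the background-subtracted signal after subtracting the array's own 75th percentile, so that 0 is the 75th percentile. A change is the mean of basal shROR2 minus the mean of basal shLUC on that log2 scale, ± its standard error, with n = 3 and 3 throughout. Adjusted p values came from limma over 29429 features, and a feature was called where the adjusted p lay under 0.05. Arrays carried between 52.8% and 59.5% of probes well above background, 0 saturated spots, and 75th percentiles of 114 to 133 signal units. The basal label was checked against 10 basal markers, whose summed signal, in units of the 75th percentile, was 1720 to 1950 in basal shLUC and 1610 to 1690 in basal shROR2, against 109 to 120 on the luminal arrays.

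Ror2 was measured by a single dim probe. Basal shLUC replicates 1 to 3 gave processed signals of 11.1, 12.1 and 10.1. The signals were 16.8, 3.03 and 6.93 in basal shROR2 replicates 1 to 3. Of the basal shROR2 arrays, replicates 2 and 3 lay below every control, and the array labelled basal shROR2 replicate 1 lay above every control and was the single basal array with Ror2 well above background. The scaled log2 means were -3.46 (SD 0.07) and -4.03 (SD 1.24), a difference of -0.57 with an exact 2-sided permutation p = 0.7 over 20 regroupings, of which 0.1 is the smallest p they can give. Without the array labelled basal shROR2 replicate 1 the difference was -1.19 (exact permutation p = 0.1, the smallest that the regroupings allow), and without replicate 2 it was 0.05. A loss of Ror2 transcript was thus not shown by this probe, and the counts of calls are given below, for all features and for 10 lists, with and without the array that went against its label.

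Of 29429 features, 284 (0.965%) were called, 113 higher (0.384%) and 171 lower (0.581%) in basal shROR2. Among the 14068 named genes 89 were higher (0.633%) and 96 lower (0.682%). The 3 shROR2 and 3 shLUC arrays did not overlap for any of the 284 called features. A call rests on the difference between these same arrays, so the lack of overlap follows largely from it and is no separate evidence. Among all features tested, called or not, the arrays did not overlap for 5438 (18.5%). Changes of at least 2-fold made up 164 of the 284. The median change of all features was -0.05, and of all named genes -0.07. The split depended on the scaling: with median scaling 109 were higher and 97 lower, with the 75th percentile taken over detected probes 114 and 115, and without the array labelled basal shROR2 replicate 1 301 and 577.

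The basal shROR2 arrays varied more among themselves than the controls did. Arrays of basal shLUC correlated with each other at 0.976 to 0.982 and those of basal shROR2 at 0.941 to 0.953, while an shROR2 array and an shLUC array correlated at 0.948 to 0.968. The median SD per feature was 0.188 in basal shLUC and 0.345 in basal shROR2, and the gap held from the dimmest features (0.391 and 0.62) to the brightest (0.1 and 0.19). The calls share 1 spread per feature over all 11 arrays, 5 of them luminal, so standard errors and adjusted p may be too small here. With a variance of its own for each group, 34 features (0.116%) were called, 13 higher (0.0442%) and 21 lower (0.0714%), all of them among the 284. With the 6 basal arrays alone, 0 features were called by limma (lowest adjusted p = 0.188), while 3129 had an unadjusted p under 0.05. The adjusted p that allows a variance per group is given below as the group-variance adjusted p.

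**Figure D1:**
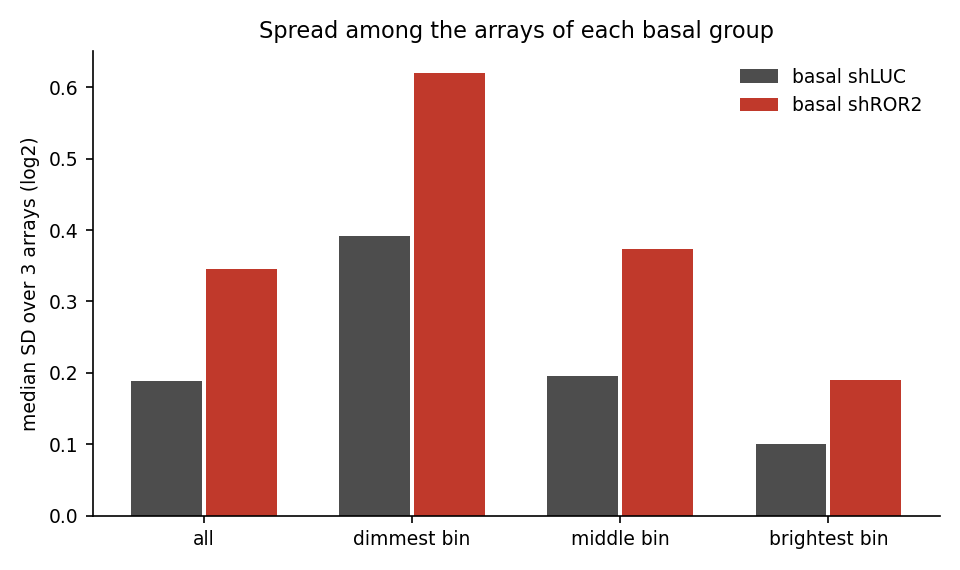
Median SD over the 3 arrays of basal shLUC (grey bars) and basal shROR2 (red bars), in log2 units, over all features tested and in 3 bins of mean signal of equal size. In each bin the basal shROR2 bar is the taller, 0.345 against 0.188 over all features.

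Some immediate early genes, which cells transcribe within minutes of a growth factor, stress or handling signal, were higher in basal shROR2. Their list, like the others below, was written with earlier results of these data known. Of 48 measured members of the list 5 rose and 0 fell, against 0.384% of all features called higher. Their median change was 0.25, 39 members lay above 0 and 25 had all shROR2 arrays above all shLUC arrays, against 6.73% of all features. Atf3, a stress-induced transcription factor of the CREB family, stood at 3.24, 3.07 and 3.17 in the controls and at 4.17, 4.11 and 4.27 in shROR2. The shROR2 arrays lay about 1 log2 unit above the controls and close to each other, and Atf3 rose by 1.03 ± 0.10 (adjusted p = 0.00738, group-variance adjusted p = 0.034). Fosb, which encodes an AP-1 subunit, stood at 7.42, 7.32 and 7.35 in the controls and 8.19, 8.28 and 8.19 in shROR2, a rise of 0.86 ± 0.09 (adjusted p = 0.00982, group-variance adjusted p = 0.0441). Btg2, an antiproliferative gene that p53 also induces, stood at 1.11, 0.98 and 0.99 against 2.19, 2.06 and 2.09, a rise of 1.08 ± 0.12 (adjusted p = 0.0112, group-variance adjusted p = 0.0556). For Fosb as for Btg2 the groups were separated by far more than the spread within either.

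Egr1, a zinc finger factor of the same response, stood at 6.48, 6.41 and 6.35 in the controls and 7.09, 7.24 and 7.44 in shROR2, a rise of 0.85 ± 0.12 (adjusted p = 0.0239, group-variance adjusted p = 0.084). Fos itself rose less, from 4.18, 4.15 and 4.13 to 4.83, 4.68 and 4.80 (0.61 ± 0.10, adjusted p = 0.0383, group-variance adjusted p = 0.142). Not all members moved: Junb was at 0.48 ± 0.15 (adjusted p = 0.165), Ier2 at 0.33 ± 0.20 (0.466) and the phosphatase gene Dusp1 at 0.21 ± 0.10 (0.348). With the slide as a block 4 members were called and with a variance per group 2. Without the array labelled basal shROR2 replicate 1 there were 7, and without basal shLUC replicate 2 there was 1. The list's median was 0.20 on slide 1, which held replicates 1 and 3 of each basal group, and 0.42 on slide 2, which held replicate 2.

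Heat shock chaperones bind unfolded proteins, and their inducible members are switched on by heat shock factor. Hspa1a, the inducible Hsp70, stood at 0.72, 0.85 and 0.62 in the controls and 2.38, 2.55 and 2.09 in shROR2. All 3 shROR2 arrays lay more than 1 log2 unit above the highest control, and the rise was 1.61 ± 0.14 (adjusted p = 0.00491, group-variance adjusted p = 0.0186). It was the only one of 25 measured chaperones that was called, as it was without the array labelled basal shROR2 replicate 1, and the list's median was 0.10. Its cochaperone gene Dnajb1 was at 0.48 ± 0.09 (adjusted p = 0.0578), the small heat shock gene Hspb8 at 0.57 ± 0.18 (0.177) and Hsph1 at 0.40 ± 0.16 (0.269). With the basal arrays alone 4 of the 25 had an unadjusted p under 0.05 by limma, all above 0, against 3.81% of all features. Hspa1a has a near-identical copy, Hspa1b, and a probe can read both.

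The promoters of Atf3, Fosb, Fos, Btg2 and Hspa1a are shown, 5 genes chosen among those that rose. Egr1 rose as well and its promoter is not shown, so the matches below hold for these 5 promoters alone. They are the 250 bases before the RefSeq transcription start in assembly GRCm38.p6, written 5′ to 3′ on the gene's strand. Capitals mark matches, on either strand, to a cyclic AMP response element half-site (TGACG), the full element (TGACGTCA, which holds 2 overlapping half-sites), a heat shock element (GAANNTTC or TTCNNGAA), a CCAAT box (CCAAT) and a TATA box (TATAAA). The CArG box, to which serum response factor binds, was searched as well and had no match in these windows.
Atf3 promoter, chr1:191183334-191183583, minus strand: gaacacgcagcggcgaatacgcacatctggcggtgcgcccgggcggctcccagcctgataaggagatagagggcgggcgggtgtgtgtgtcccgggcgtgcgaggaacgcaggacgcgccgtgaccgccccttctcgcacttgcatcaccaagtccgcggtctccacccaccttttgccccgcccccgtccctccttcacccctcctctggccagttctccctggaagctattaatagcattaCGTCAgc
Fosb promoter, chr7:19310046-19310295, minus strand: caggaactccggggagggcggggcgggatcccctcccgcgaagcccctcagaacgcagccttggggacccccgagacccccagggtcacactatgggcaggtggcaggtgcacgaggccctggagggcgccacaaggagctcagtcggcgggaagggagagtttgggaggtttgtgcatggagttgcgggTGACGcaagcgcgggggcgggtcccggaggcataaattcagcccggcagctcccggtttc
Fos promoter, chr12:85473640-85473889, plus strand: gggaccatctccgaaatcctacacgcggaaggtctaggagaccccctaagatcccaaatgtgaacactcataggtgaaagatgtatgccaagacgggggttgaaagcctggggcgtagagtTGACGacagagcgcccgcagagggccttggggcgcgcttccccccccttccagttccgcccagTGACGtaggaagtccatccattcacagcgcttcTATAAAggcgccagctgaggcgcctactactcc
Btg2 promoter, chr1:134079156-134079405, minus strand: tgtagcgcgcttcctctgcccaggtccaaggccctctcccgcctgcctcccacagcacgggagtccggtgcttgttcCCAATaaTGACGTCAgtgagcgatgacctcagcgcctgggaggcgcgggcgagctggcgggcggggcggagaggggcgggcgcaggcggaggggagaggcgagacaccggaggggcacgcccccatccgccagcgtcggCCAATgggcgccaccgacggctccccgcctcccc
Hspa1a promoter, chr17:34972157-34972406, minus strand: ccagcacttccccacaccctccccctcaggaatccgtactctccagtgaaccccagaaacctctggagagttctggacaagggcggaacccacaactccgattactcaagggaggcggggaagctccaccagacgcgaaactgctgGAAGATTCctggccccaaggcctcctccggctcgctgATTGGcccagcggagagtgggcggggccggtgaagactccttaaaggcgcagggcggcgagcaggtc
Of these 5 windows 4 hold a TGACG half-site, all but that of Hspa1a, against 17.8% of the 32851 promoter windows searched. Btg2 holds the full element TGACGTCA, as 1.55% of windows do. Hspa1a holds a heat shock element, as 12.8% of windows do, and a CCAAT box (33.8%), which Btg2 holds as well. Fos has the TATA box (12.4%). The CArG box was in 1.47% of windows. A match is a description of the letters and not evidence that a factor bound there.

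**Figure D2:**
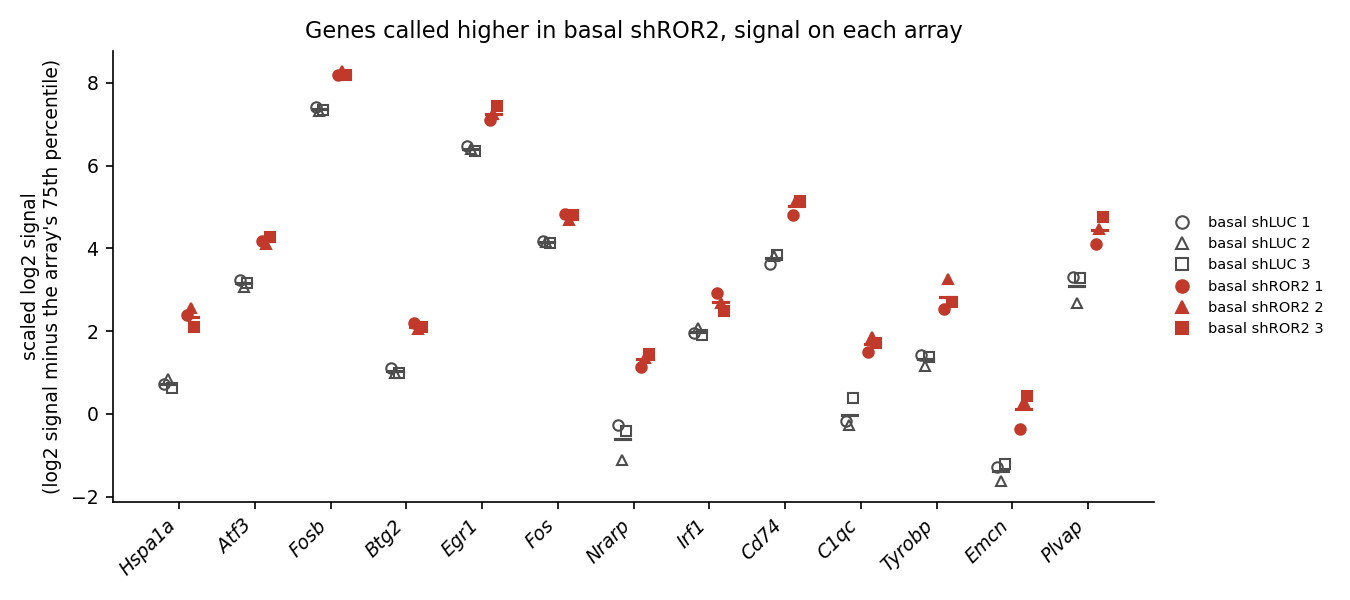
Scaled log2 signal (log2 signal minus the array's 75th percentile) of 13 genes called higher in basal shROR2, one symbol per array, open grey for basal shLUC and filled red for basal shROR2, with a short line at each group mean. The red symbols lie above the grey ones for every gene, for Hspa1a at 2.09 to 2.55 against 0.62 to 0.85.

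Transcripts of leukocytes, above all of macrophages and other antigen-presenting cells, held the largest share of called genes of any list used here. Of 25 measured members 10 rose and 0 fell, against 0.384% of all features called higher, with a median change of 1.06. Of the 25, 15 had arrays that did not overlap upward, against 6.73% of all features. In bulk RNA, fewer or more cells of a type cannot be told apart from less or more RNA per cell. Cd74, the invariant chain that escorts MHC class II molecules, stood at 3.63, 3.81 and 3.83 in the controls and 4.80, 5.15 and 5.14 in shROR2, a rise of 1.27 ± 0.13 (adjusted p = 0.00926, group-variance adjusted p = 0.035). The class II genes themselves rose with it, H2-Ab1 by 1.12 ± 0.13 (adjusted p = 0.0118, group-variance adjusted p = 0.0481) and H2-Eb1 by 1.28 ± 0.15 (0.0133 and 0.0556). A second H2-Ab1 probe was at 1.29. The groups did not overlap for any of these class II genes, and the array labelled basal shROR2 replicate 1 was the lowest of the shROR2 arrays for each.

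The complement C1q chains, made mostly by tissue macrophages, rose as a trio. C1qc stood at -0.18, -0.27 and 0.38 in the controls and 1.5, 1.86 and 1.72 in shROR2 (1.72 ± 0.18, adjusted p = 0.00982, group-variance adjusted p = 0.0556). C1qa rose by 1.49 ± 0.23 (adjusted p = 0.0304) and C1qb by 1.04 ± 0.16 (0.0271), and for both the array labelled basal shROR2 replicate 1 was the highest. Tyrobp, a signalling adaptor of myeloid receptors, stood at 1.42, 1.16 and 1.38 against 2.53, 3.25 and 2.70 (1.51 ± 0.18, adjusted p = 0.0131, group-variance adjusted p = 0.034). Its partner Fcer1g rose by 1.06 ± 0.17 (0.0324), the lysosomal gene Laptm5 by 1.77 ± 0.26 (0.0269) and the lysozyme gene Lyz1 by 1.16 ± 0.14 (0.0118), whose near-identical neighbour Lyz2 can share a probe. Outside the list, Mpeg1, a pore-forming protein of macrophages, rose from 0.86, 1.00 and 0.86 to 2.10, 2.48 and 2.53 (1.47 ± 0.13, adjusted p = 0.00619, group-variance adjusted p = 0.0188), and Bcl2a1d rose by 1.85 ± 0.21 (0.0116 and 0.0441).

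Not every leukocyte gene followed. Ptprc, the pan-leukocyte gene CD45, was at 0.03 and the macrophage receptor gene Csf1r at -0.01. The summed signal of 8 leukocyte markers was 52.4 to 53.7 in basal shLUC and 75.4 to 79.8 in basal shROR2, with at least 7 of the 8 well above background on each array. Csf1r was the brightest of the 8 in the controls, and the rise of the sum came mostly from Cd74. Of the dimmer markers, Tyrobp, C1qa and Lyz2 were at 1.51, 1.49 and 0.67, and Cd3e and Cd79a at 0.29 and 0.19. The number of called leukocyte genes was 8 with the slide as a block, 3 with a variance per group, 11 without the array labelled basal shROR2 replicate 1, 1 without basal shLUC replicate 1 and 2 without basal shLUC replicate 2. The list's median was 1.05 on slide 1 and 0.89 on slide 2.

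Some endothelial transcripts were higher as well. Of 21 measured members 4 rose and 0 fell, with a median of 0.93 (0.91 on slide 1 and 1.57 on slide 2), and 15 did not overlap upward, against 0.384% of all features called higher and 6.73% without overlap upward. Mmrn1, multimerin of lymphatic endothelium and platelets, was well above background on 0 of 3 basal shLUC and all 3 basal shROR2 arrays, and was at least 2.39-fold higher (adjusted p = 0.00234, group-variance adjusted p = 0.0184). Emcn, endomucin of capillary and venous endothelium, stood at -1.29, -1.62 and -1.22 against -0.36, 0.30 and 0.43, a rise of 1.5 ± 0.28 (adjusted p = 0.0483, group-variance adjusted p = 0.19). Plvap, which forms the diaphragms of fenestrated vessels, rose by 1.35 ± 0.23 (0.0425), the water channel gene Aqp1 by 1.25 ± 0.21 (0.037) and the endothelial transcription factor gene Erg, which is not in the list, by 1.68 ± 0.24 (0.0262). The list held 1 called member with the slide as a block, with a variance per group, and without any 1 of the basal shLUC arrays, and 5 without the array labelled basal shROR2 replicate 1. It held 2 without basal shROR2 replicate 2 and 2 without replicate 3.

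Of 9 measured adipocyte transcripts 2 were called higher, against 0.384% of all features, and the list's median was 0.75. The count was 1 with the slide as a block, 0 with a variance per group, 0 without any 1 of the basal shLUC arrays, 1 without basal shROR2 replicate 2 and 3 without the array labelled basal shROR2 replicate 1. The fatty acid carrier gene Fabp4 stood at 4.64, 4.45 and 4.50 in the controls and 5.43, 5.74 and 5.46 in shROR2, a rise of 1.02 ± 0.14 (adjusted p = 0.0216). The fatty acid translocase gene Cd36 rose by 1.1 ± 0.20 (0.0465). Fabp4 and Cd36 are also transcribed by capillary endothelium and macrophages. Adipoq, which adipocytes alone are known for, was well above background on 1 of 3 shLUC and 0 of 3 shROR2 arrays. The other adipocyte markers Plin1 and Cidec were at 0.43 and -0.04, and the groups overlapped for both. The pericyte and muscle gene Des rose by 1.54 ± 0.26 (0.0384). Of 17 fibroblast transcripts 0 were called by limma, with a median of 0.21. With the basal arrays alone 4 had an unadjusted p under 0.05, 1 above 0 and 3 below, against 3.81% and 6.82% of all features. Summed over the markers, the endothelial signal was 19.5 to 24.5 in basal shLUC and 35.9 to 44.5 in basal shROR2, the erythroid signal 1.75 to 3.46 and 4.25 to 9.04, and the pericyte signal 3.5 to 4.12 and 5.02 to 6.64. The rise of the endothelial sum came mostly from Plvap. Pecam1 and Cdh5 were at 0.89 and 0.93, while Kdr and Tie1 were at 0.16 and 0.25 and their groups overlapped. The pericyte sum was mostly Rgs5 (0.63), while Kcnj8 and Abcc9 were at -0.06 and -0.03. The luminal signal was 63.8 to 67.5 in basal shLUC and 71.3 to 95.8 in basal shROR2. Its brightest marker was Krt18 (0.46), and Krt19, Cldn3, Cldn4 and Pgr were at 0.43, 0.4, 0.82 and 0.76. Krt8, Epcam, Elf5, Gata3 and Esr1 went the other way, at -0.11, -0.09, -0.47, -0.33 and -0.79. The fibroblast signal overlapped, at 52.1 to 56.9 and 50.9 to 67.5. The sum of the 4 adipocyte markers, 22.4 to 25.3 and 43.7 to 54, was almost that of Fabp4 alone, since the others lay below 0 on the scaled log2 signal of every basal array. The muscle markers Ckm and Myh4 and the pericyte marker Kcnj8 were not well above background on any basal array. The leukocyte, endothelial, erythroid, pericyte and luminal sums were higher on the same arrays as every rise given here, the immediate early genes included, and their part in the results was not tested.

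**Figure D3:**
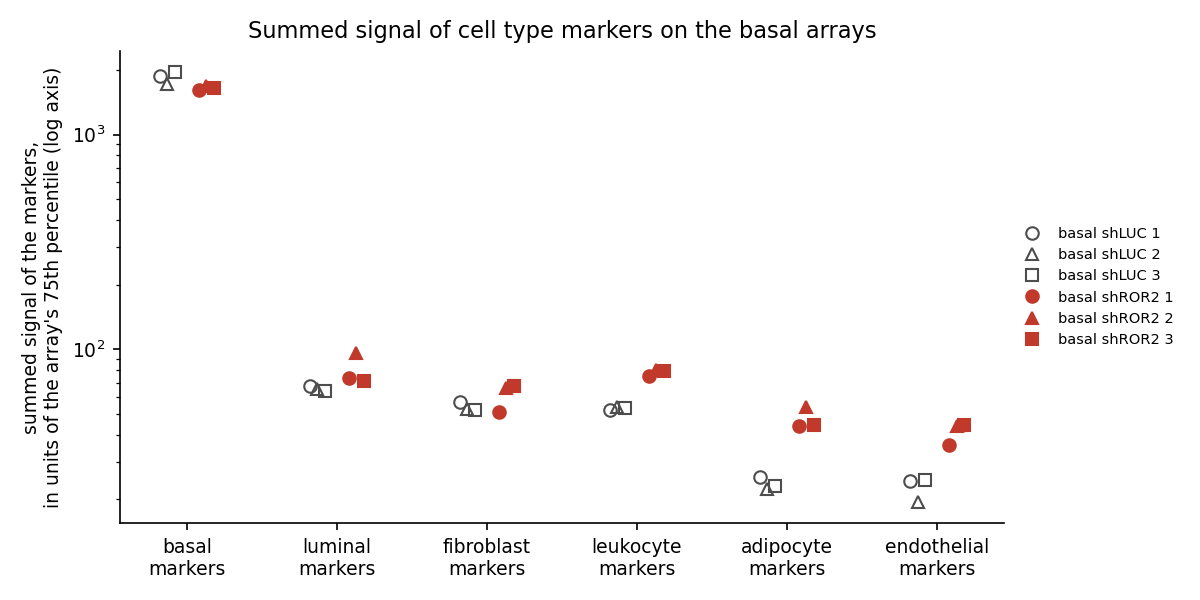
Summed signal of marker genes of 6 cell types on each basal array, in units of the array's 75th percentile, on a log axis, open grey for basal shLUC and filled red for basal shROR2. The leukocyte and endothelial sums lie higher on all 3 basal shROR2 arrays, the leukocyte sum mostly through Cd74 and the endothelial sum mostly through Plvap. The adipocyte sum, which is mostly Fabp4, lies higher as well. Basal markers lie lower (1610 to 1690 against 1720 to 1950), and fibroblast markers overlap.

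Notch signalling passes between neighbouring cells: a ligand such as Jag1 on one cell activates a receptor on the next, which switches on targets that include the feedback inhibitor Nrarp. Jag1 stood at 5.16, 5.20 and 5.04 in the controls and 4.25, 4.11 and 4.21 in shROR2. The groups were tight and apart, and Jag1 fell by 0.94 ± 0.16 (adjusted p = 0.0384, group-variance adjusted p = 0.194). Nrarp moved the opposite way, from -0.27, -1.11 and -0.42 to 1.14, 1.36 and 1.46, a rise of 1.92 ± 0.25 (adjusted p = 0.0185, group-variance adjusted p = 0.111). Without the array labelled basal shROR2 replicate 1, Jag1 was at -0.97 (limma adjusted p = 0.0368) and Nrarp at 2.01 (0.0177). Jag1 was the only one of 6 measured ligands and Nrarp the only one of 10 measured targets that were called, and of 20 receptor and processing genes 0 were. Of these 20, 4 had an unadjusted p under 0.05 by limma with the basal arrays alone. They were 2 above 0 and 2 below, against 3.81% and 6.82% of all features. The canonical targets Hes1 (0.18 ± 0.12, adjusted p = 0.524) and Hey1 (-0.34 ± 0.37, 0.712) did not pass, nor did the receptor gene Notch1 (0.75 ± 0.22, 0.15), whose second probe was at 0.79. Nrarp is also transcribed in endothelium, whose markers were higher in the same arrays, and that part was not tested.

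Most markers of the basal layer's own identity lay a little lower in shROR2, and 1 was called. Krt14, a keratin that defines the layer, was at -0.08 ± 0.13 (adjusted p = 0.818), Krt5 at -0.32 ± 0.14 (0.303) and the smooth muscle actin gene Acta2 at -0.14 ± 0.13 (0.645). Trp63, the transcription factor gene on which the layer depends, was at 0.13 ± 0.10 (0.552) by one probe and -0.99 by another. The first probe read 6.43 to 6.58 on the luminal arrays and 6.62 to 6.85 on the basal arrays. It thus hardly separated the layers, and whether Trp63 changed in basal cells cannot be read from it. Of 20 myoepithelial and basal keratin markers 1 fell, Krt15, a keratin of basal and progenitor-like epithelial cells, from 3.98, 3.96 and 3.87 to 3.03, 3.07 and 2.88 (-0.95 ± 0.17, adjusted p = 0.0465, group-variance adjusted p = 0.214). The list's median was -0.27, and 17 of 20 members lay below 0, where 16301 of the 29429 features did. Of the 20, 9 had all shROR2 arrays below all controls, against 11.7% of all features. With the basal arrays alone 5 had an unadjusted p under 0.05 by limma, all below 0, against 6.82% of all features. The list's median was -0.29 on slide 1 and -0.04 on slide 2, and 1 member was called without the array labelled basal shROR2 replicate 1, and 0 with a variance per group or with the slide as a block. Of 20 luminal markers 0 were called by limma (median 0.28), nor was any of 17 hormone-sensing genes (median 0.34). With the basal arrays alone 6 and 3 of them had an unadjusted p under 0.05, all above 0, against 3.81% of all features. Without the array labelled basal shROR2 replicate 1, 1 luminal marker was called higher. With every array included, the luminal keratin genes Krt8 and Krt18 were at -0.11 ± 0.13 (0.714) and 0.46 ± 0.12 (0.129).

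Genes of cell attachment gave 1 call, though many lay below the controls. All shROR2 arrays lay below all controls for 8 of 17 desmosome and hemidesmosome genes and 8 of 18 integrin subunits, against 11.7% of all features. With the basal arrays alone, 6 of the 17 had an unadjusted p under 0.05 by limma, all below 0, against 6.82% of all features. Of 17 desmosome and hemidesmosome genes 1 fell, the plakophilin gene Pkp1, which links desmosomes to keratin filaments, from 5.29, 5.14 and 5.41 to 4.60, 4.50 and 4.68 (-0.69 ± 0.13, adjusted p = 0.047, group-variance adjusted p = 0.194). Desmoplakin, Dsp, was at -0.59 (0.0819) and the desmoglein gene Dsg3, well above background on 1 of 3 shROR2 arrays, at -1.60 (0.215), and the list's median was -0.19 with 14 of 17 members below 0, as 16301 of the 29429 features were. Without the array labelled basal shROR2 replicate 1 it held 2 called falls, and 0 with a variance per group, with the slide as a block or without any 1 of the basal shLUC arrays. Of 18 integrin subunits 0 were called by limma, and with the basal arrays alone 1 had an unadjusted p under 0.05 above 0 and 3 below, against 3.81% and 6.82% of all features. Of the 18, 16 lay below 0 with a median of -0.40 (-0.34 on slide 1 and -0.22 on slide 2), and 1 fell without the array labelled basal shROR2 replicate 1. Among them Itga3, a laminin receptor subunit, was at -0.69 (0.127) and Itgb4 of the hemidesmosome at -0.63 (0.202).

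Target genes of SRF and YAP, factors that respond to the state of the actin cytoskeleton, gave 1 call. Fhl2, a cofactor and target of serum response factor, stood at 4.15, 3.96 and 4.05 in the controls and 3.30, 3.31 and 3.56 in shROR2, where it fell by 0.66 ± 0.11 (adjusted p = 0.039, group-variance adjusted p = 0.13). It was the only one of 31 measured SRF and YAP targets that was called. The list's median was -0.18 (-0.27 on slide 1 and -0.08 on slide 2), and 14 members had all shROR2 arrays below all controls, against 11.7% of all features. It held 2 called falls without the array labelled basal shROR2 replicate 1, and 0 with a variance per group, with the slide as a block or without any 1 of the basal shLUC arrays. Tiam1, an exchange factor that activates Rac and stands outside the lists, fell from -0.80, -0.78 and -0.93 to -2.06, -2.09 and -2.13 (-1.26 ± 0.21, adjusted p = 0.037, group-variance adjusted p = 0.196), and its unadjusted p of 6.67e-05 with the basal arrays alone was among the lowest in that fit.

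In the Ror2 pathway itself 0 of 36 measured Ror, non-canonical Wnt and planar polarity genes were called by limma, with a median of -0.22. Of the 36, 27 lay below 0, as 16301 of the 29429 features did. With the basal arrays alone 2 of them had an unadjusted p under 0.05 below 0, against 6.82% of all features. Wnt5a, the main ligand of Ror2, stood at 4.27, 4.44 and 4.32 in the controls and 4.08, 3.83 and 4.24 in shROR2 (-0.29 ± 0.12, adjusted p = 0.299). Wnt11 was at -0.31 ± 0.13 (0.309), and Ror1, the close relative of Ror2, at 0.16 ± 0.16 (0.676). None of 25 Wnt ligand, Frizzled and Lrp genes (median -0.08), 11 secreted Wnt inhibitors (median -0.36) or 18 β-catenin targets (median -0.07) was called by limma, while 3, 4 and 3 of them had an unadjusted p under 0.05 with the basal arrays alone (1, 1 and 2 above 0 and 2, 3 and 1 below), against 3.81% of all features above 0 and 6.82% below. Wnt4 was at -0.19 ± 0.21 (0.719), and Axin2, the most used reporter of β-catenin activity, at 1.42 ± 0.53 (0.245), where 1 of 3 controls and all 3 shROR2 arrays were well above background.

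**Figure D4:**
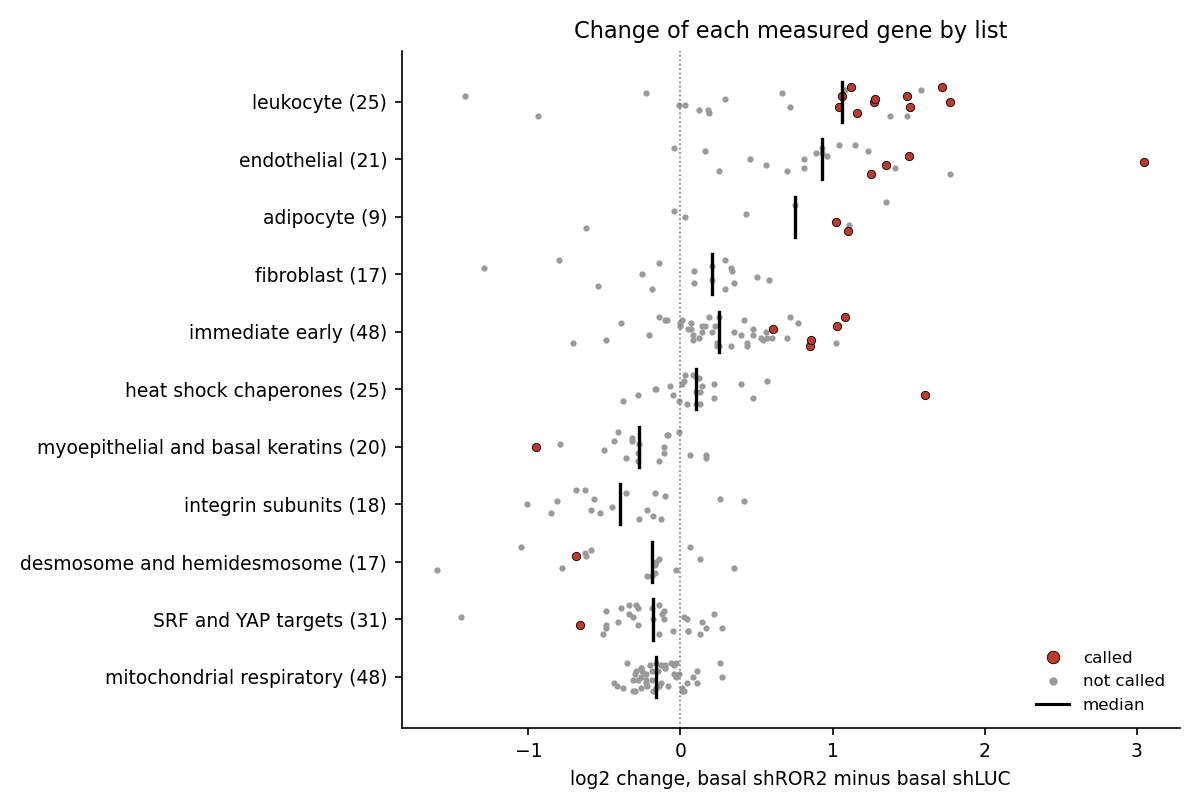
Log2 change in basal shROR2 against basal shLUC of each measured gene in 11 lists, red where called and grey where not, with a black line at the list's median and the number of measured genes in brackets. Leukocyte and endothelial genes lie to the right (medians 1.06 and 0.93), and integrin genes lie to the left with 0 called.

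Some genes dropped below detection. Of the 96 named genes that fell, 18 were well above background on at least 1 basal shLUC array and on 0 of 3 basal shROR2 arrays, so that only a lower bound of the fall is known. The bound is the shLUC mean over the detection floor of the shROR2 arrays, which is the dimmest spot well above background there, or the probe itself where it was brighter than that floor. Optc, opticin, a small leucine-rich proteoglycan, stood at -2.79, -2.03 and -2.47 in the controls and -5.31, -5.31 and -5.26 in shROR2, and was at least 1.73-fold lower (adjusted p = 0.00217, group-variance adjusted p = 0.0184). These bounds hold on the background-subtracted signal, and on the normexp scale and with the values of the authors' deposited table Optc was at -0.41 and -0.45 and Mmrn1 at 0.44 in both. Nkain3, which encodes a protein that interacts with the sodium pump, was at least 2.08-fold lower (0.00364 and 0.0186) and the zinc finger gene Zfp65 at least 1.75-fold (0.00811 and 0.034). Cdk15 was at least 2.68-fold lower (0.0264), Creld1 at least 2.34-fold (0.0461), Proca1 at least 2.16-fold (0.037) and Lig4, the ligase of DNA end joining, at least 2.11-fold (0.0467). For every one of these 7 genes all 3 controls were well above background, though close to it.

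Among falls measured in both groups, Aass, an enzyme of lysine breakdown, went from 0.06, -0.97 and -0.31 to -2.51, -2.18 and -1.80 (-1.76 ± 0.28, adjusted p = 0.0316, group-variance adjusted p = 0.137). The lowest control stayed above the highest shROR2 array. Acvr2a, an activin receptor gene, fell from 1.40, 1.07 and 1.41 to 0.61, 0.26 and 0.33 (-0.90 ± 0.14, 0.0316), and its second probe was at -0.44. It was the only one of 38 TGF-β and BMP genes that was called, against 0.581% of all features called lower. With the basal arrays alone 4 of the 38 had an unadjusted p under 0.05 by limma above 0 and 6 below. All features gave 3.81% and 6.82%. The probes of a gene did not always agree. Apol10b fell by 1.19 ± 0.11 by one probe (0.00619, group-variance adjusted p = 0.0342) and was at 0.13 by another, and Mxd1, a Myc antagonist, fell by 1.03 ± 0.11 (0.00926 and 0.0452) and was at 0.40 by another. Of the 25 called falls with another probe, 7 had a probe of opposite sign, as had 1 of 14 called rises.

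**Figure D5:**
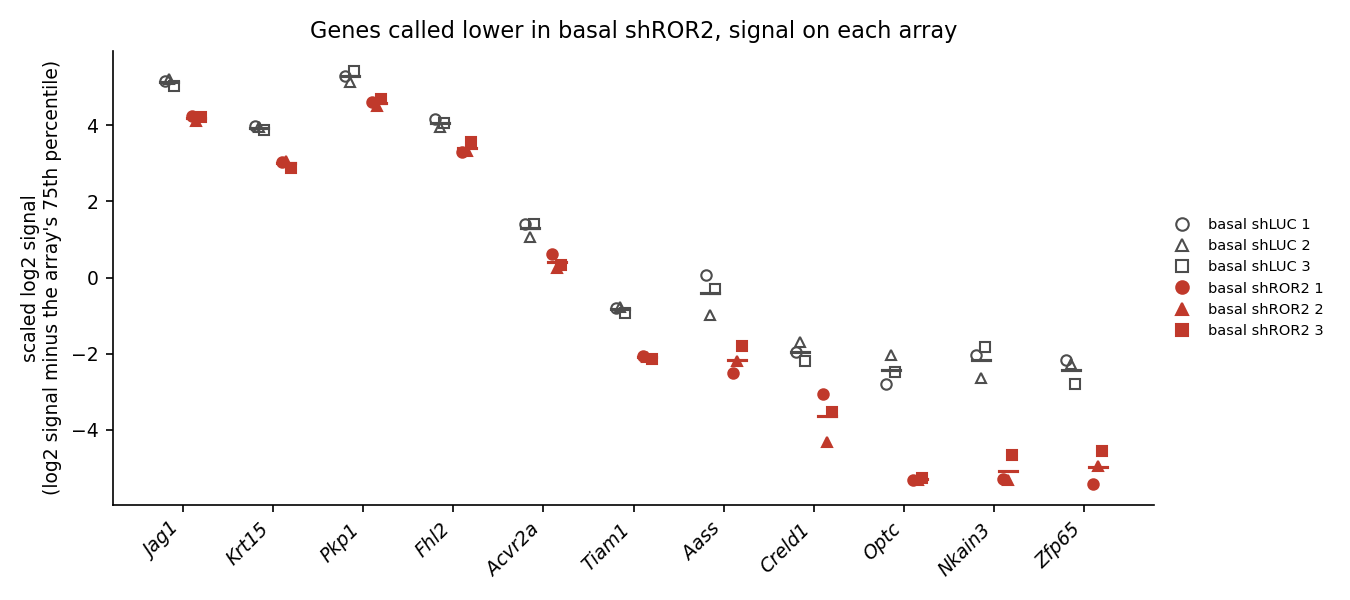
Scaled log2 signal (log2 signal minus the array's 75th percentile) of 11 genes called lower in basal shROR2, one symbol per array, open grey for basal shLUC and filled red for basal shROR2, with a short line at each group mean. The red symbols lie below the grey ones for every gene, and those of Optc, Nkain3 and Zfp65 are below detection.

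The largest rise was that of Clca1, a secreted mucus-associated protein gene that is transcribed in luminal cells. It stood at -2.49, -0.18 and -4.02 in basal shLUC, where 2 of 3 arrays were well above background, and at 3.03, 2.71 and 2.71 in basal shROR2 (5.05 ± 0.76, adjusted p = 0.0275, group-variance adjusted p = 0.156). The controls spread widely while the shROR2 arrays lay close together. The milk protein gene Lalba stood at -0.75, -0.91 and -0.47 against 0.40, 0.34 and 1.33 (1.40 ± 0.25, 0.0465). The summed luminal markers, of which Krt18 was the brightest, were also higher on these arrays (71.3 to 95.8 against 63.8 to 67.5). Not every luminal marker rose, and their part was not tested. Clca1 and Lalba were the only called members of 20 milk and secretory genes (median 0.14), against 0.384% of all features called higher. With the basal arrays alone 2 of the 20 had an unadjusted p under 0.05 by limma above 0 and 1 below. Tnf, a cytokine of macrophages and stressed epithelium, stood at -4.42, -2.94 and -4.57 against -1.07, -1.62 and -2.13 (2.37 ± 0.42, 0.0439), and 1 of the 3 controls was well above background, so that the change rests in part on controls below detection. It was the only one of 31 NF-κB, cytokine and chemokine genes that was called (median 0.24), against 0.384% of all features called higher. With the basal arrays alone 9 of the 31 had an unadjusted p under 0.05 by limma above 0 and 3 below. All features gave 3.81% and 6.82%. All shROR2 arrays lay above all controls for 8 of the 31 and below for 3, against 6.73% and 11.7% of all features.

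Further rises named by the same rule were those of the cathepsin gene Ctsr, at least 3.74-fold (adjusted p = 0.019, group-variance adjusted p = 0.0481), Gatm of creatine synthesis (1.79 ± 0.24, 0.0185), Cebpzos (1.78 ± 0.30, 0.0378) and the acetate-activating enzyme gene Acss1 (1.68 ± 0.31, 0.0482). Of the controls, 2 of 3 were well above background for Gatm and 1 of 3 for Acss1. Orc1, a subunit of the replication origin complex, was at least 1.30-fold higher (0.0112) with 2 of 3 shROR2 and 0 of 3 shLUC arrays well above background, and Depdc1b at least 1.21-fold lower (0.037). These were the called members of 43 cell cycle and replication genes, whose median was 0.14. Irf1, an interferon-induced transcription factor, stood at 1.95, 2.07 and 1.90 against 2.93, 2.69 and 2.49 (0.73 ± 0.13, 0.0473), and its second probe moved as far. It was the only one of 30 interferon response genes that was called (median 0.05). Stc2 was the only one of 29 unfolded protein and amino acid response genes (1.03 ± 0.19, 0.0493). Of 48 respiratory chain subunits 0 passed by limma (median -0.16, with 39 below 0 and 2 at an unadjusted p under 0.05 with the basal arrays alone). Of all 29429 features 16301 lay below 0, and 6.82% had such a p below 0. Of 53 ribosomal protein genes 0 passed at either level (median 0.04). Of 21 p53 targets Btg2 alone was called, and of 28 DNA repair genes Lig4 alone. All features gave 0.384% called higher and 0.581% lower. With the basal arrays alone, 4 interferon genes had an unadjusted p under 0.05 by limma above 0 and 1 below. The unfolded protein list had 3 and 0, the cell cycle list 4 and 2. The p53 list had 2 and 1, the DNA repair list 2 and 3. Lists of basal lineage transcription factors, cell junctions, laminins and basement membrane, matrix proteases, EGF and FGF signalling, mesenchymal transition, glycolysis and hypoxia, lipid synthesis, erythroid and muscle, and glial transcripts held 0 called genes by limma, with medians between -0.11 and 0.18. With the basal arrays alone some members had an unadjusted p under 0.05 by limma, against 3.81% of all features above 0 and 6.82% below. Above and below 0 these were 3 and 6 of 29 junction genes and 3 and 2 of 18 mesenchymal genes. They were 3 and 4 of 33 lipid genes, 2 and 2 of 28 glycolysis genes and 2 and 1 of 22 protease genes. Laminin (25) and EGF and FGF genes (25) had 1 and 3 each. Basal factors (15) and glial genes (6) had 0 and 1 each, erythroid and muscle genes (8) 1 and 0. Of the 29 junction genes 10 had all shROR2 arrays below all controls and 5 above, against 11.7% and 6.73% of all features.

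Luminal cells of the same study were read beside the basal ones, from arrays that share no sample with the 6 basal arrays. Of the 89 named genes that rose in basal cells, 78 lay above 0 in luminal shROR2 against luminal shLUC, where 51.9% of all named genes did, and their median was 0.40 against 1.13 in basal cells. Of the 96 that fell, 62 lay below 0 in luminal cells, with a median of -0.08 against -0.96. Leukocyte transcripts had a median of 0.58 in luminal cells, endothelial ones 0.80 and immediate early ones 0.08. The luminal comparison itself called 1 feature (0.0034%). Tested directly, the difference between the basal and the luminal change was called for 0 features by limma, while 2440 had an unadjusted p under 0.05. Hspa1a was at 0.15 in luminal cells, Atf3 at 0.31, Jag1 at 0.20 and Krt15 at 0.45, and Btg2 at 0.89, nearly its basal value. None of the changes given here was thus shown to be particular to basal cells.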

How the data were processed

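Per the file headers, the deposited scanner files hold intensity values from Agilent Feature Extraction 11.0.1.1 (version per the submitters' processing notes), with a processed signal from which background was subtracted on each array and a raw median signal. The authors' deposited value table likewise holds linear intensity values, with column medians of 88.79 to 89.33. The sources used here do not give how the authors normalized it, so its centring stays unknown, and it was used only as an alternative. On the log2 scale each column correlated at 0.996 to 0.998 with its own array's raw median signal.

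From the processed signal, log2 values were scaled to each array's 75th percentile over 59305 non-control spots, and spots of a probe were averaged (55681 probes). Of these 26582 took a symbol through their RefSeq accession in the RefSeq gene annotation of GRCm38.p6, used for names alone, and 29099 kept their probe name. Probes had to be well above background on at least 3 of 11 arrays (33628 were), and the brightest probe stood for a gene, which left 29429 features. A model with 4 group means was fitted with limma 3.58.1 (lmFit and eBayes, 2-sided, Benjamini-Hochberg adjustment) in R 4.3.3 (data.table, version 1.17.8), and tested on simulated data first. Where the files lacked the mean signal, the normexp alternative (offset 50) used the median signal. Promoters came from RefSeq (GRCm38.p6), and plots were made in Python 3.11.15 with matplotlib 3.10.9.

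Samples of a group are called biological triplicates in the labels. The number of arrays limits the precision of every value. The arrays compared were chosen by their titles alone. Gene lists were written with earlier results of these data known, so their counts against all features are not independent of these data. Genes named are the 12 largest rises and the 12 largest falls among called genes without overlap and well above background on all arrays of the higher group, the 10 smallest p values with the basal arrays alone, up to 4 genes of each list with the smallest p, the 8 smallest p values for the difference from luminal cells, and 22 genes of interest. Further called list members, Hes1, Hey1, Junb, Ier2 and Dusp1 were named after their values were seen. Alternatives were other scalings, backgrounds, filters, spreads and blocks, and each array left out. Same-numbered shLUC and shROR2 arrays did not deviate together (correlations of 0.016, -0.01 and -0.015), so replicate numbers were not used as pairs. Some results are not reported here.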

Additional observations from a re-analysis of the deposited data

How the results depend on the processing

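The count of 284 called features fell to 34 with a variance weight per group, 133 with the slide as a block, 135 of 49218 features without a filter, and 0 with the 6 basal arrays alone (3129 at an unadjusted p under 0.05) or with slide 1 alone (2497). Slide 2 held 1 array a group and gave no test. With the replicate number as a block and the 6 basal arrays, 0 features were called by limma and 2630 had an unadjusted p under 0.05 (lowest adjusted p = 0.52), so that every call was lost there as in the fit without the block. It rose to 691 with normexp on median signals and 541 in the authors' table. Median scaling gave 206, quantile normalization 253, the percentile over detected probes 229, a filter on a basal group 397 of 25370, and the mean of a gene's probes 275. Leaving out 1 array gave 27 to 878: 878, 409 and 420 without basal shROR2 replicates 1, 2 and 3, 27, 35 and 78 without basal shLUC replicates 1, 2 and 3, and 74 to 96 without 1 luminal array. The cause of these shifts was not tested, except that fits without the luminal arrays hold fewer samples. The difference between the basal and luminal change, 0 in the main setting, was called for 1 feature with median scaling, 2 with quantile normalization, 7 with normexp on median signals, 7 in the authors' table and 2 with the filter on a basal group. Without 1 array it was called for 0 to 8. Ror2 lay below the controls under the other settings run, at -1.19 to -0.04, and above them at 0.05 (exact permutation p = 0.8) without basal shROR2 replicate 2. Hspa1a, Atf3, Cd74, Mmrn1 and Optc were called most often of the named genes, in 21 of 24 settings each. Many others were called in fewer: Tnf and Lalba in 9, Jag1 in 8, Krt15 and Fhl2 in 7, Pkp1 and Emcn in 6 and Lig4 in 4. These 13 genes kept their sign in all 24. The changes of Hspa1a, Atf3 and Cd74 ranged from 1.33 to 1.74, 0.98 to 1.09 and 1.20 to 1.38. Mmrn1 and Optc, each with a group below detection, have no exact change. Mmrn1 was well above background on 0 basal shLUC and 3 basal shROR2 arrays, and Optc on 3 and 0. The main filter asked for 3 such arrays, so the higher basal group alone could meet it. The calls of Mmrn1 and Optc, and their counts of settings, may thus rest in part on the filter. Probes near background limit the falls to bounds, since 42 of the 284 features were dim in shROR2.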

Other observations

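A few genes stood apart between the layers without passing adjustment over all features. Snai2, a transcription factor gene of the basal layer, was at -0.22 ± 0.14 in basal cells and 1.41 in luminal cells, a difference of -1.63 ± 0.21 (limma adjusted p = 0.0891). Its mean was 4.42 in basal shLUC, which lay 8.57 above luminal shLUC. The luminal controls of Snai2 were thus dim, and neither 1.41 nor the difference is exact. Fstl1, a secreted follistatin-like protein gene, was at -0.10 ± 0.13 and 1.39 (difference -1.49 ± 0.19, adjusted p = 0.0891). Ecel1, a membrane endopeptidase gene, fell in basal cells from 0.99, 0.88 and 1.15 to 0.28, -0.02 and -0.51 (-1.09 ± 0.19, adjusted p = 0.045) and was at 1.34 in luminal cells, a difference of -2.43 ± 0.29 (0.0891). The smallest p was that of Optc (adjusted p = 0.0594), followed by Mmrn1 (0.0665). Of these 5 genes, Optc and Mmrn1 are the ones with a dim group among the basal arrays. Detection on the luminal arrays is not given here for these genes.

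Comp, cartilage oligomeric matrix protein, was among the 10 genes with the lowest p when the 6 basal arrays were fitted alone, and not called over all 11 arrays (2.26 ± 0.56, adjusted p = 0.107). The controls stood at -2.89, -2.03 and -2.74 and the shROR2 arrays at -0.20, -0.27 and -0.42, so that its basal groups lay apart while its standard error was 0.25 with the basal arrays alone.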
